A study of Mus musculus with 10 samples.

Results

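Haematopoietic stem and progenitor cells (HSPC) carrying mutant nucleophosmin (Npm1c) were compared with wild-type (WT) HSPC across the transcriptome. The Npm1c mice were labelled Npm1flox-cA/+;Mx1-Cre+, that is, with 1 conditional mutant Npm1 allele, 1 normal allele and the Mx1-Cre recombinase, and the other mice were labelled wild-type. All were on the C57BL/6 background. Bone marrow was flushed from femurs and tibias, red cells were lysed, and cells bearing mature lineage markers were removed on magnetic beads. HSPC here therefore means the lineage-negative fraction, a mixture of stem cells, progenitors of several lineages and any mature cells that escaped depletion. Each genotype had 2 libraries, described as biological replicates, out of 10 libraries in 5 groups in the whole study, which also holds Flt3-ITD HSPC, double mutant HSPC and WT neutrophils. Total RNA was depleted of ribosomal RNA and sequenced with a strand-specific kit. Mx1-Cre is driven by an interferon-inducible promoter and is active in many blood lineages. The labels do not give the age or sex of the mice, the inducing agent, the share of cells that had recombined, or whether the WT mice carried Mx1-Cre.

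Nucleophosmin is an abundant nucleolar protein that chaperones histones and ribosomal subunits and shuttles between nucleolus and cytoplasm. The leukaemia-associated mutation replaces the nucleolar localisation signal at its carboxyl end with a nuclear export signal, so that the exportin XPO1 carries the mutant protein, and part of the normal protein, into the cytoplasm. NPM1-mutant acute myeloid leukaemia is known for high expression of homeobox genes of the HOXA and HOXB clusters and of their partner MEIS1. The study compared Npm1c, Flt3-ITD and their combination to ask how the 2 lesions cooperate, and the Npm1c libraries show the first lesion alone.

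Of the 16771 genes in the deposited tables, 8879 had at least 1 RPKM (reads scaled to gene length and to the library total) in at least 2 of the 4 libraries and were tested, and 7892 were not. A level of at least 1 RPKM in all 4 libraries was met by 8167 genes, while 19 genes passed through the Npm1c libraries alone and 460 through the WT libraries alone. The minimum was applied to RPKM as deposited, before the scaling described below. Such genes had to differ between the genotypes in deposited RPKM, and all 19 of the first kind and 238 of the second were called in that direction. The scaling lowers WT values relative to Npm1c values, so genes that passed through the WT libraries alone need not differ after it. The second-highest of the 4 values lay between 1 and 1.1 RPKM in 165 genes and between 0.9 and 1 RPKM in 193 genes just outside the minimum. The library totals behind the values were 53914454 and 53754187 reads in Npm1c and 55334692 and 57824373 reads in WT, but 60.9% and 63.1% of the Npm1c reads fell on listed genes, against 74.5% and 74.1% of the WT reads. Levels below are therefore RPKM divided by a median-of-ratios factor per library (0.942 and 0.971 for Npm1c, 1.17 and 1.16 for WT), and are called scaled RPKM. The spread between replicates, as a root mean square SD over genes on the log2 scale, was 0.109 in Npm1c and 0.060 in WT. Npm1c replicate 2 stood apart in expressing Y-linked genes, with a summed level of 12.9 scaled RPKM, against 0.00863 in Npm1c replicate 1 and 0.00247 and 0.00196 in WT replicates 1 and 2.

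Expression of Npm1 itself (chr11:33152287-33163206, mm10), from the normal and mutant alleles together, was 281 and 304 scaled RPKM in the Npm1c libraries, against 247 and 244 in the WT libraries. The groups did not overlap, as in 36.6% of all genes in this direction and 41.3% in the other, and Npm1 was higher by 0.25 ± 0.056 on the log2 scale (standard error; adjusted p = 0.0134, limma with Benjamini-Hochberg adjustment over all genes tested, as for every adjusted p below). The adjusted p ran from 0.0232 to 0.0749 when any 1 of the 4 libraries was left out, and was past the threshold only without Npm1c replicate 1. Without scaling the difference was -0.04 (adjusted p = 0.614). Gene totals do not separate the mutant from the normal transcript, so they do not check the genotype labels.

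Across the transcriptome, 1703 genes (19.2%) rose and 1923 genes (21.7%) fell in Npm1c HSPC at an adjusted p under 0.05, together 40.8% of those tested. Most differences were small: 92.2% of genes lay within 0.5 of 0 on the log2 scale, and the median size among called genes was 0.31. At least 2-fold, 34 genes (0.383%) rose and 37 genes (0.417%) fell. The counts rest on 2 libraries per genotype. The p-values measure differences against a spread between replicates that is shared over all 8 HSPC libraries. The Flt3-ITD pair spread most among them (0.162 on the log2 scale). Leaving out Npm1c replicate 1 or 2 gave 1016 and 892 rises with 1249 and 1084 falls, and leaving out WT replicate 1 or 2 gave 819 and 630 rises with 862 and 704 falls. The split of directions depended on the scaling: the RPKM values as deposited gave 227 rises and 5401 falls, with 96.0% of calls lower and a median gene at -0.27, against 53% lower and a median gene at -0.01 after median-of-ratios scaling. Changes below are relative to the scaled median gene. Counts of gene lists are to be read beside the 19.2% of all genes that rose and the 21.7% that fell. Both shares varied with expression level, as given below with the GC content. Counts in the direct contrast with Flt3-ITD HSPC are to be read beside 7.75% of all genes higher and 12.3% lower in Npm1c.

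**Figure D1:**
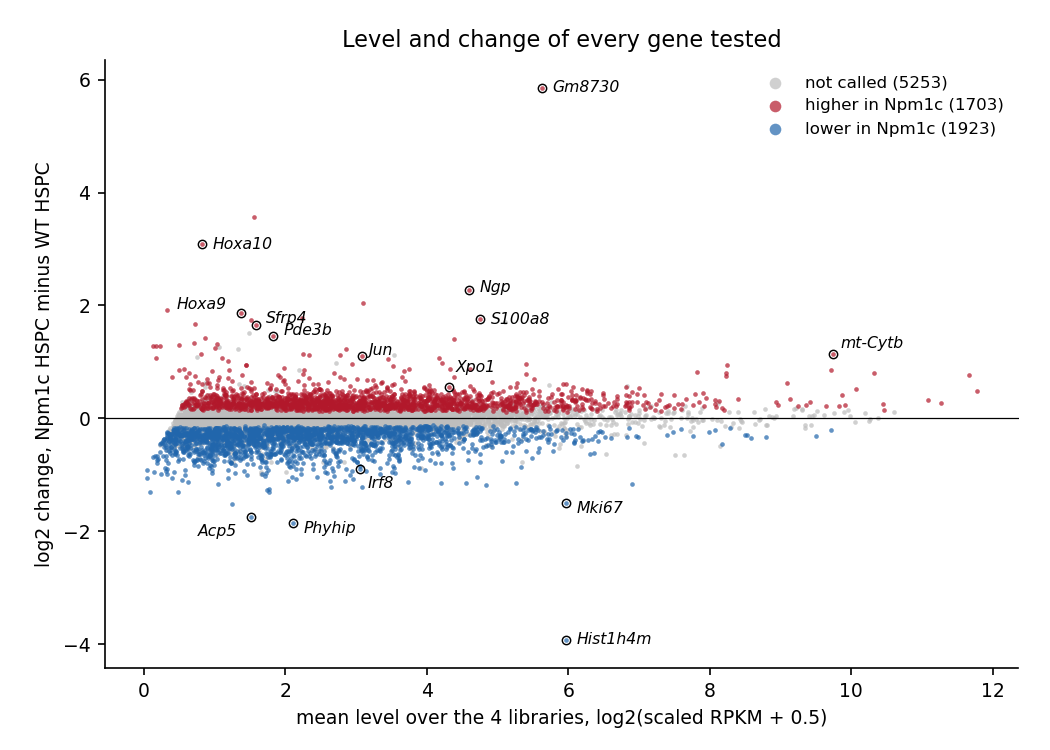
Each point is 1 of the 8879 genes tested, with the mean log2 level of the 4 libraries across and the log2 difference, Npm1c minus WT, up the page. Coloured points are the 1703 rises and 1923 falls, most of them within 0.5 of 0, and the labelled genes include Hoxa10 at 3.08, Hoxa9 at 1.87 and Mki67 at -1.49.

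Homeobox genes of the HoxA cluster, which specify position in the embryo and sustain self-renewal of haematopoietic progenitors, were higher together and were among the largest changes. Of 10 listed HoxA genes 4 reached the expression minimum. Hoxa6, Hoxa7 and Hoxa10 reached it through the Npm1c libraries alone, so they belong to the 19 genes that had to differ and the number of HoxA genes that rose is fixed in large part by the minimum. Their values, and those of Hoxa9, which also reached 1 RPKM in WT replicate 2, are given singly, and each of the 4 rose under every scaling and when any 1 library was left out. Hoxa10 (chr6:52231197-52240854, mm10) was at 5.21 and 4.17 scaled RPKM in Npm1c, from 1785 and 1468 reads, against 0.110 and 0.108 in WT, from 48 and 49 reads. Hoxa10 was thus low but detected in both WT libraries and plainly expressed in both Npm1c libraries. On the log2(level + 0.5) scale, which understates the change of low genes, it rose 8.48-fold (3.08 ± 0.092, adjusted p = 1.9e-05). Hoxa9, which acts with its partner Meis1 in leukaemia, was at 4.55 and 4.31 in Npm1c, against 0.824 and 0.875 in WT. It was present in WT and rose 3.65-fold (1.87 ± 0.094, adjusted p = 0.000167). Another annotated gene overlaps Hoxa9 on the same strand, so its reads may be shared.

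Hoxa7 was at 1.42 and 1.39 scaled RPKM in Npm1c, against 0.541 and 0.550 in WT (0.86 ± 0.11, adjusted p = 0.00258). Hoxa6 was at 1.17 and 1.23 in Npm1c, against 0.142 and 0.273 in WT (1.27 ± 0.13, adjusted p = 0.00137). Both genes were low in absolute terms, and the groups did not overlap in either. Hoxa5, which missed the minimum, was at 1.45 and 0.950 in Npm1c, against 0.263 and 0.206 in WT, and Hoxa4 was at 0.507 and 0.445, against 0.291 and 0.289. Hoxa2, Hoxa3 and Hoxa11 stayed under 0.25 in all 4 libraries, and Hoxa11 had no read in either Npm1c library. The rise was thus carried by the stretch from Hoxa5 to Hoxa10.

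The promoter windows of the 2 HoxA genes with the largest changes are shown because they stand next to each other in the cluster and changed most. They run from 250 bases before to 50 bases after the annotated start (RefSeq, GRCm38.p6), Hoxa10 at chr6:52240805-52241104 on the minus strand and Hoxa9 at chr6:52227321-52227620 on the minus strand.

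Hoxa10: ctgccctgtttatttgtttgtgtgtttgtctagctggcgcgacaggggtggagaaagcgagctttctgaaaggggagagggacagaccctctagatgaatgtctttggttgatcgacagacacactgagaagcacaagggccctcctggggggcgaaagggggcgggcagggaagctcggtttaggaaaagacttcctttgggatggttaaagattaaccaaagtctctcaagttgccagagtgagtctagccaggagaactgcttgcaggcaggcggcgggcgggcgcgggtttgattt

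Hoxa9: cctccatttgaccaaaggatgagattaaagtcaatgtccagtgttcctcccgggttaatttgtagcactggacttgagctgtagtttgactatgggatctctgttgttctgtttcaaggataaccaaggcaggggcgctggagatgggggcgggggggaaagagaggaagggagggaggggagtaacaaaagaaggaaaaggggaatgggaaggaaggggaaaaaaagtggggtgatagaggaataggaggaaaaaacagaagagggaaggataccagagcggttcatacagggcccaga

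The GC content was 54.3% with 12 CpG dinucleotides in the Hoxa10 window and 49.7% with 4 in the Hoxa9 window, against a median of 61.0% and 22 over the 6820 tested genes with a promoter sequence. Neither window holds CCAAT on either strand, which occurs in 39.5% of all windows. Neither holds TATAAA, the letters of the TATA box, which occur in 6.23% of all windows.

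No gene of the HoxB, HoxC and HoxD clusters reached the minimum among 13 listed, and their summed level was 0.663 and 0.662 scaled RPKM in Npm1c, against 0.531 and 0.492 in WT. Meis1, the partner that is high in human NPM1-mutant leukaemia, was not tested either, at 0.9004 and 0.805 in Npm1c and 0.802 and 0.807 in WT. These values overlap. Among the chromatin regulators that maintain or silence Hox genes, the menin-MLL and Polycomb list, 3 of 24 tested members rose and 2 fell, with a median of 0.01 (1 rise and 14 falls without scaling). The direct contrast of Npm1c with Flt3-ITD HSPC, in which 7.75% of all genes were higher and 12.3% lower in Npm1c, was read for the HoxA genes one by one, since the minimum had already chosen genes high in Npm1c. In that contrast Hoxa10 was higher by 3.11 (adjusted p = 5.42e-05), with 0.0878 and 0.111 in the Flt3-ITD libraries, and Hoxa9 was higher by 1.68 (adjusted p = 0.000349). The Flt3-ITD pair was uneven: replicate 1 had a Y-linked sum of 12.4 scaled RPKM, a monocyte list sum of 343 and a primary granule sum of 2020, against 0.00327, 238 and 977 in replicate 2, and the replicate spread of the group was 0.162 on the log2 scale. Over all genes, 543 were higher and 1047 lower in Npm1c without Flt3-ITD replicate 1, and 1676 and 2037 without replicate 2, against 688 and 1088 with both. With either left out, Hoxa10 was higher by 3.08 or 3.13 and Hoxa9 by 1.83 or 1.54.

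**Figure D2:**
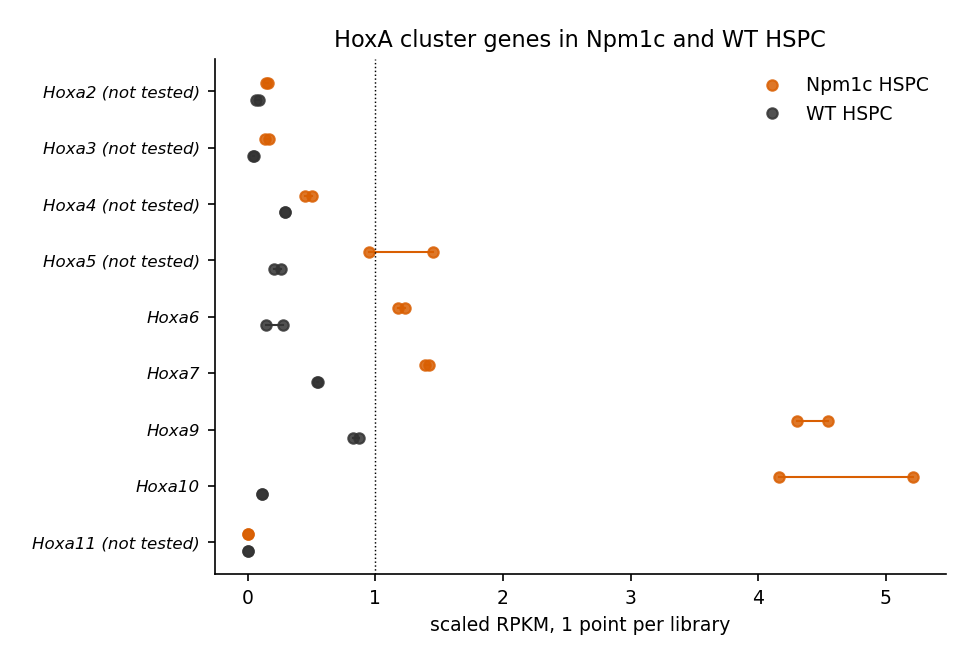
Levels of HoxA genes in scaled RPKM on a linear axis, 1 point per library, with the Npm1c libraries drawn above the WT libraries of each gene, a line joining the 2 libraries of a group and a dotted line at 1. Hoxa10 is at 5.21 and 4.17 in Npm1c and near 0.11 in WT, and Hoxa5, Hoxa6, Hoxa7 and Hoxa9 also lie apart without overlap.

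Other genes with large rises belonged to varied functions. Sfrp4, a secreted modulator of Wnt signalling, was at 4.32 and 5.30 scaled RPKM in Npm1c, against 1.14 and 1.23 in WT (1.65 ± 0.13, adjusted p = 0.000683). Pde3b, which degrades cyclic AMP, was at 4.70 and 6.11 in Npm1c, against 1.67 and 1.60 in WT (1.46 ± 0.16, adjusted p = 0.00165). The homeodomain cofactor Hopx, a marker of quiescent stem cells in several tissues, was at 1.25 and 1.28 in Npm1c, against 0.220 and 0.228 in WT. Hopx rose by 1.28 ± 0.090 (adjusted p = 0.000647), and was 1.25 higher than in Flt3-ITD (adjusted p = 0.00103). Dnah8, a dynein heavy chain of cilia and flagella, was at 7.33 and 5.85 in Npm1c, against 2.73 and 2.65 in WT (1.14, adjusted p = 0.000741). Efcab7, a component of the Hedgehog pathway at the cilium, was at 2.02 and 2.16, against 0.526 and 0.542 (1.33, adjusted p = 0.000683), and its difference from Flt3-ITD was 0.20 (adjusted p = 0.197, and 0.0084 without Flt3-ITD replicate 1). The chemokine gene Ccl4 was at 1.83 and 2.36 in Npm1c, against 0.611 and 0.746 in WT (1.13, adjusted p = 0.00117). In each of these genes both Npm1c libraries lay above both WT libraries, as in 36.6% of all genes, and the naming rule required this of the largest rises. Hopx, Efcab7 and Ccl4 passed the expression minimum through the Npm1c libraries alone. They thus belong to the 19 genes that had to differ, and the minimum had chosen them as high in Npm1c before the comparison with Flt3-ITD.

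Some genes of nuclear export were higher in Npm1c HSPC. Xpo1, the exportin that carries mutant nucleophosmin out of the nucleus, was at 22.9 and 24.0 scaled RPKM in Npm1c, against 16.2 and 15.6 in WT (0.55 ± 0.063, adjusted p = 0.0018). Ranbp1, a regulator of the Ran GTPase that powers export, was at 59.2 and 58.1, against 44.7 and 46.8 (0.36, adjusted p = 0.00197). Of the 14 tested members of the nucleophosmin and export list, 5 rose (35.7%, against 19.2% of all genes), 1 fell and 8 did not pass, with a median of 0.10. Leaving out any 1 library gave 3 or 4 rises, and without scaling 1 rose and 7 fell. In the direct contrast with Flt3-ITD, Xpo1 was higher in Npm1c by 0.28 (adjusted p = 0.0266).

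Myc, the transcription factor that drives ribosome production and growth, was at 9.05 and 8.25 scaled RPKM in Npm1c, against 5.60 and 5.69 in WT (0.57 ± 0.058, adjusted p = 0.0014). Part of the machinery of protein synthesis was moderately higher on the scaled values. Of 39 ribosome biogenesis and nucleolar genes, 17 rose (43.6%, against 19.2% of all genes), 4 fell and 18 did not pass (median 0.20), although without scaling 6 rose and 16 fell. Utp20, of the small-subunit processome, was at 19.4 and 19.9 in Npm1c, against 13.2 and 12.5 in WT (0.59, adjusted p = 0.0022). Taf1d, a subunit of the RNA polymerase I selectivity factor, was at 26.0 and 27.5, against 14.8 and 13.8 (0.88, adjusted p = 0.000683), and shares its strand with 10 overlapping annotated genes. Tcof1, a nucleolar scaffold for ribosomal RNA transcription, went the other way at 2.52 and 2.74 in Npm1c, against 4.89 and 4.87 in WT (-0.78, adjusted p = 0.00229). Between 8 and 14 members of this list rose when any 1 library was left out. In the direct contrast with Flt3-ITD, 16 members were higher in Npm1c and 0 were lower, with 11 and 28 higher without Flt3-ITD replicate 1 and replicate 2.

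Translation factors showed the same shape, with 16 of 29 higher (55.2%) and 2 lower (median 0.25), and 3 higher and 11 lower without scaling. Eif3e, a subunit of the initiation factor that binds the small ribosomal subunit, was at 271 and 285 scaled RPKM in Npm1c, against 204 and 204 in WT (0.45, adjusted p = 0.00165). Tpt1, a growth-associated translation regulator, was at 78.1 and 70.5, against 51.5 and 46.2 (0.60, adjusted p = 0.0023). Of the 83 cytosolic ribosomal protein genes tested, 42 rose (50.6%) and 2 fell (median 0.16), with 24 rises and 5 falls under quantile normalization and 2 rises and 33 falls without scaling. Rps26 was at 1301 and 1269 in Npm1c, against 859 and 939 in WT (0.52, adjusted p = 0.0016). Rps12 was at 4138 and 4138, against 2920 and 3030 (0.48, adjusted p = 0.00125), shares its strand with 3 overlapping annotated genes, and turned to -0.18 (adjusted p = 0.328) under quantile normalization. That method gives each rank the same value in every library. The mitochondrial gene mt-Co1 took the mirrored value of 0.18 under it, so these 2 values follow rank and do not decide whether either gene rose. Between 22 and 38 ribosomal protein genes, and between 8 and 14 translation factors, rose when any 1 library was left out. Against Flt3-ITD, 2 ribosomal protein genes were higher in Npm1c and 0 were lower (4 and 2 without Flt3-ITD replicate 2).

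Transcripts of the mitochondrial genome, which encode core subunits of the respiratory chain, rose together. All 13 rose, with a median of 0.82, and 12 rose without scaling, under quantile normalization and when any 1 library was left out. mt-Cytb, of respiratory complex III, was at 1372 and 1172 scaled RPKM in Npm1c, against 570.1 and 586 in WT (1.13 ± 0.12, adjusted p = 0.0015). mt-Atp8, of the ATP synthase, was at 31.7 and 35.7, against 11.6 and 13.03 (1.41 ± 0.20, adjusted p = 0.00319). mt-Co1 and mt-Co2, of cytochrome oxidase, and mt-Nd6, of complex I encoded on the other strand, rose by 0.77, 0.97 and 0.82 (adjusted p = 0.00511, 0.00309 and 0.00192). mt-Co1 did not pass under quantile normalization (adjusted p = 0.328), where its value of 0.18 mirrored that of Rps12 and followed rank. Relative to the WT mean, the median of the 13 was 0.96 in Npm1c replicate 1 and 0.68 in replicate 2. In the direct contrast with Flt3-ITD, 5 of 13 were higher in Npm1c (1 without Flt3-ITD replicate 1 and 12 without replicate 2), with mt-Cytb at 0.59 (adjusted p = 0.0199). The median GC content of these transcripts was 37.1%, and their part in the GC trend described below was not tested, but all 13 rose with a median of 0.66 after GC correction, under which 20.4% of all genes rose and 16.8% fell.

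Nuclear genes of the same organelle moved less. Of 87 nuclear oxidative phosphorylation genes, 32 rose and 5 fell (median 0.11), and of 76 mitochondrial ribosomal protein genes, 35 rose and 4 fell (median 0.14), while without scaling the counts were 1 and 40, and 0 and 29. Ndufb4, of complex I, was at 21.1 and 20.4 scaled RPKM in Npm1c, against 15.4 and 15.2 in WT (0.42, adjusted p = 0.00129). Mrpl42, of the mitochondrial large ribosomal subunit, was at 102 and 104, against 77.1 and 77.9 (0.41, adjusted p = 0.000968). Proteasome genes were similar, with 16 of 38 higher and 3 lower (0 and 16 without scaling), Psma3 standing at 13.4 and 14.1 in Npm1c and 10.6 and 11.2 in WT (0.33, adjusted p = 0.00366). Leaving out any 1 library left 18 to 22 rises among oxidative phosphorylation genes, 8 to 18 among mitochondrial ribosomal protein genes and 6 to 12 among proteasome genes.

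Genes of cell division fell. Mki67, the Ki-67 antigen that coats the chromosomes of cycling cells, was at 35.5 and 37.9 scaled RPKM in Npm1c, against 109 and 99.7 in WT, 2.82-fold lower (-1.49 ± 0.094, adjusted p = 0.000449). Of 32 tested G2 and mitosis genes, 25 fell and 0 rose, with a median of -0.30, and between 16 and 21 fell when any 1 library was left out. Cenpe, the kinesin that aligns chromosomes at the kinetochore, was at 6.18 and 6.82 in Npm1c, against 11.6 and 10.4 in WT (-0.72, adjusted p = 0.0012). Kif23, a kinesin of cytokinesis, was at 10.3 and 11.05, against 16.4 and 16.9 (-0.62, adjusted p = 0.00142). Cenpf, a kinetochore protein, was at 3.59 and 3.59, against 6.21 and 5.37 (-0.62, adjusted p = 0.00176). The spindle checkpoint kinase Bub1b fell by 0.47 (adjusted p = 0.00077), and the spindle proteins Nusap1 and Tpx2 fell by 0.51 and 0.50 (adjusted p = 0.000968 and 0.00077). Apart from Mki67, the falls were thus under 2-fold. The median change of the list was -0.33 in Npm1c replicate 1 and -0.29 in replicate 2 relative to the WT mean, so both libraries carried it.

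Flt3-ITD HSPC were set directly beside these values. Mki67 was at 39.1 and 32.1 scaled RPKM in Flt3-ITD, and its difference between Npm1c and Flt3-ITD was 0.05 (adjusted p = 0.726). For the list as a whole, 16 of 32 members were lower in Npm1c than in Flt3-ITD and 0 were higher. The median GC content of the list was 46.5%, and 25 fell and 0 rose after GC correction.

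Many mitotic promoters carry a CCAAT box and the cell cycle homology region (TTTGAA), through which the MuvB complexes act. The promoters of the 4 members with the largest falls are shown, chosen after their values were seen, as bases 250 before to 50 after the annotated start (RefSeq, GRCm38.p6), with CCAAT, or ATTGG where it lies on the other strand, and TTTGAA, or its complement TTCAAA, in capitals. They lie at chr7:135716330-135716629 on the minus strand, chr3:135212313-135212612 on the plus strand, chr9:61946750-61947049 on the minus strand and chr1:189688037-189688336 on the minus strand.

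Mki67: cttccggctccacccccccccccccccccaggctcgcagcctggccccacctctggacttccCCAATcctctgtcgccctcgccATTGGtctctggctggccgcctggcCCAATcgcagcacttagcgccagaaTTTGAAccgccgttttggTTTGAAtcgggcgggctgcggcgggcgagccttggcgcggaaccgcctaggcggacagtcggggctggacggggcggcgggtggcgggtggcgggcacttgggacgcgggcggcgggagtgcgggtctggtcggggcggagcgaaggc

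Cenpe: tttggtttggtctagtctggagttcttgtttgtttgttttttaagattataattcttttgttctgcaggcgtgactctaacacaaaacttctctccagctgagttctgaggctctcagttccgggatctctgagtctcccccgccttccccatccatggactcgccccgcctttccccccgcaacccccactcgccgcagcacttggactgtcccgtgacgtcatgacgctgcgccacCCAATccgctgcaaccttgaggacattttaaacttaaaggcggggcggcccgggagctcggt

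Kif23: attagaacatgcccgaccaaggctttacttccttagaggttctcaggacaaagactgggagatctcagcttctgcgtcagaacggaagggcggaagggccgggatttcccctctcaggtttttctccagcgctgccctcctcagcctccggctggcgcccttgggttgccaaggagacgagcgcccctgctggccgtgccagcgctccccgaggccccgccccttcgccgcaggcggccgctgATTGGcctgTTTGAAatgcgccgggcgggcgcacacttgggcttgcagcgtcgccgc

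Cenpf: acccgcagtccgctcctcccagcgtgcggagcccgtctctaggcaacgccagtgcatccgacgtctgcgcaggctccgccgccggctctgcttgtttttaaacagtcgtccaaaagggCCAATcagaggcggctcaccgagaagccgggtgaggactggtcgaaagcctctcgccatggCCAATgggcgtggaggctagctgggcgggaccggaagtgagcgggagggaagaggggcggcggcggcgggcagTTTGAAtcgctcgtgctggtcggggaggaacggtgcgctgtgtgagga

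All 4 windows hold CCAAT, and TTTGAA is found in those of Mki67, Kif23 and Cenpf but not in that of Cenpe. Among the 22 fallen members with a promoter sequence, CCAAT was present in 20 (90.9%) and TTTGAA in 17 (77.3%), against 39.5% and 12.01% of all 6820 windows. Over all tested members of the list, fallen or not, they were present in 88.9% and 77.8% of the windows. In the windows of the S phase genes CCAAT was present in 61.5% and TTTGAA in 11.5%. A match describes these letters and not a bound site.

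Genes of DNA replication fell less evenly. Of 31 S phase genes, 18 fell and 1 rose (median -0.19), and between 8 and 16 fell when any 1 library was left out. Tk1, the thymidine kinase of the salvage pathway, was at 8.69 and 8.96 scaled RPKM in Npm1c, against 13.5 and 14.9 in WT (-0.66, adjusted p = 0.000888). Uhrf1, which guides maintenance DNA methylation to new strands, was at 14.7 and 15.1, against 21.5 and 22.3 (-0.54, adjusted p = 0.00074). E2f2, a transcription factor of the G1 to S transition, was at 3.47 and 4.63, against 8.96 and 8.38 (-1.02, adjusted p = 0.00167). The D-type cyclins, which start the cycle, moved in opposite directions. Ccnd2 was at 9.46 and 10.1 in Npm1c, against 6.44 and 5.35 in WT (0.69, adjusted p = 0.00348). Ccnd1 was at 1.37 and 1.76, against 3.12 and 3.14 (-0.82, adjusted p = 0.00167), and Ccnd3 fell by 0.50 (adjusted p = 0.0021). Cdkn2c, an inhibitor of the cyclin D kinases, was at 6.41 and 6.96 in Npm1c, against 11.2 and 11.8 in WT (-0.74, adjusted p = 0.000783). Among 18 G1 cyclins, kinases and inhibitors, 3 rose and 6 fell (2 and 12 without scaling).

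DNA methylation enzymes included the same replication-linked gene, and 7 of 12 fell and 1 rose. Dnmt1, the maintenance methyltransferase, was at 19.7 and 21.2 scaled RPKM in Npm1c, against 30.5 and 30.8 in WT (-0.57, adjusted p = 0.00147). Idh2, the mitochondrial isocitrate dehydrogenase that is mutated in some leukaemias, was at 10.4 and 11.2, against 16.9 and 17.6 (-0.65, adjusted p = 0.00502). The number that fell was 4 to 6 when any 1 library was left out.

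Among p53 target genes, 5 of 16 rose (31.25%, against 19.2% of all genes) and 2 fell (12.5%, against 21.7%). The median was 0.03, and without scaling 4 rose and 7 fell. Ccng1, a cyclin G that acts in the p53 feedback loop, was at 53.2 and 64.2 scaled RPKM in Npm1c, against 29.1 and 30.4 in WT (0.96 ± 0.092, adjusted p = 0.0012). Phlda3, an inhibitor of AKT signalling, was at 2.13 and 3.12, against 0.903 and 0.706 (1.25 ± 0.15, adjusted p = 0.00188). Polk, a polymerase that bypasses DNA lesions, was at 2.01 and 2.20, against 1.30 and 1.31 (0.53, adjusted p = 0.00138). Trp53inp1, a p53-induced gene of autophagy and cell death, went the other way at 2.62 and 2.61 in Npm1c, against 3.56 and 3.48 in WT (-0.37, adjusted p = 0.0025). Steap3, a ferrireductase first described as p53-induced, rose by 0.69 (adjusted p = 0.00074). Set against Flt3-ITD, 8 of the 16 were higher in Npm1c and 0 were lower, against 7.75% and 12.3% of all genes. Phlda3 was higher by 1.199 (adjusted p = 0.00424) and Ccng1 by 0.64 (adjusted p = 0.00742) in that contrast.

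Monocyte genes had the largest share of falls among the lineage lists examined. Of 23 listed monocyte and macrophage genes 12 were tested, and 10 fell and 0 rose, with a median of -0.70. Csf1r, the receptor for macrophage colony-stimulating factor, was at 3.79 and 3.71 scaled RPKM in Npm1c, against 7.68 and 7.69 in WT (-0.95 ± 0.13, adjusted p = 0.00311). Ccr2, the chemokine receptor by which monocytes leave the marrow, was at 2.99 and 2.64, against 6.04 and 6.05 (-0.98 ± 0.061, adjusted p = 0.000449). Cx3cr1, the fractalkine receptor, and Mpeg1, a pore-forming protein of macrophages, fell by 0.66 and 0.86 (adjusted p = 0.00165 and 0.00226). The summed level of the list was 132 and 163 in Npm1c, against 219 and 222 in WT, and between 6 and 8 members fell when any 1 library was left out. In bulk RNA of this kind, fewer cells of a type and less RNA per cell cannot be told apart.

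The monocyte list was also lower in Npm1c than in Flt3-ITD: 10 of 12 members were lower in the direct contrast and 0 higher, with a median of -1.06. Without Flt3-ITD replicate 1, the library with the higher monocyte sum, 10 were lower with a median of -0.83, and without replicate 2, 11 with a median of -1.36. Ccr2 was lower by 1.28 (adjusted p = 0.000232), Csf1r by 1.19 (adjusted p = 0.00364) and Mpeg1 by 1.32 in that contrast.

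Transcription factors of the myeloid and erythroid lineages fell as well, with 10 of 18 lower and 0 higher (median -0.32). Irf8, which directs progenitors to monocytes and dendritic cells, was at 5.97 and 5.26 scaled RPKM in Npm1c, against 10.8 and 10.995 in WT (-0.90 ± 0.10, adjusted p = 0.00165). Flt3-ITD HSPC had Irf8 at 17.004 and 13.7, and the direct difference was -1.37 (adjusted p = 0.00103). Spi1, which encodes PU.1, the master regulator of myeloid fate, was at 3.87 and 4.14 in Npm1c, against 6.98 and 7.83 in WT (-0.81, adjusted p = 0.0131). Klf4, a factor of monocyte differentiation, was at 0.895 and 0.944, against 1.77 and 1.85 (-0.70, adjusted p = 0.00696). The groups did not overlap in any of these 3 genes, as in 41.3% of all genes in this direction. Klf4 passed the expression minimum through the WT libraries alone, so it had to differ in deposited RPKM, though not necessarily after scaling. For Spi1 the adjusted p was 0.0532 to 0.0850 when any 1 library was left out, and for Klf4 0.0348 to 0.0533, past the threshold in all but the fit without WT replicate 2. Only 1 to 5 of the lineage factors fell in those fits.

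Antigen presentation and phagocyte genes pointed the same way. Cd74, the invariant chain of MHC class II, was at 4.32 and 4.43 scaled RPKM in Npm1c, against 10.1 and 9.97 in WT (-1.12 ± 0.065, adjusted p = 0.000347). H2-DMb1, which loads peptides onto class II molecules, was at 3.15 and 3.19, against 5.41 and 5.47 (-0.70, adjusted p = 0.00397). Of 8 tested class II genes 3 fell, of 8 dendritic cell genes 4 fell, and 0 rose in either list. Ncf1, a subunit of the phagocyte NADPH oxidase, was at 2.15 and 2.48, against 4.27 and 4.31 (-0.77, adjusted p = 0.0217), and did not pass when any 1 library was left out (adjusted p = 0.0644 to 0.102). Of the 6 oxidase subunits 3 fell and 0 rose, and 0 or 1 fell in those fits.

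Lysosome genes gave 14 falls and 1 rise among 28 tested (6 to 11 falls when any 1 library was left out). Acp5, the tartrate-resistant phosphatase of macrophages and osteoclasts, was at 1.103 and 1.003 scaled RPKM in Npm1c, against 4.71 and 4.78 in WT (-1.76 ± 0.052, adjusted p = 1.9e-05). Ctss, a protease of antigen-presenting cells, was at 5.81 and 6.00, against 11.7 and 11.7 (-0.93, adjusted p = 0.00201). Psap, the precursor of the saposins, fell by 0.79 (adjusted p = 0.000347), and Galns, a sulphatase that degrades keratan sulphate, by 1.21 (adjusted p = 0.000683). Set against Flt3-ITD, 13 of the 28 were lower in Npm1c and 1 was higher, with Acp5 lower by 1.07 (adjusted p = 0.000232).

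**Figure D3:**
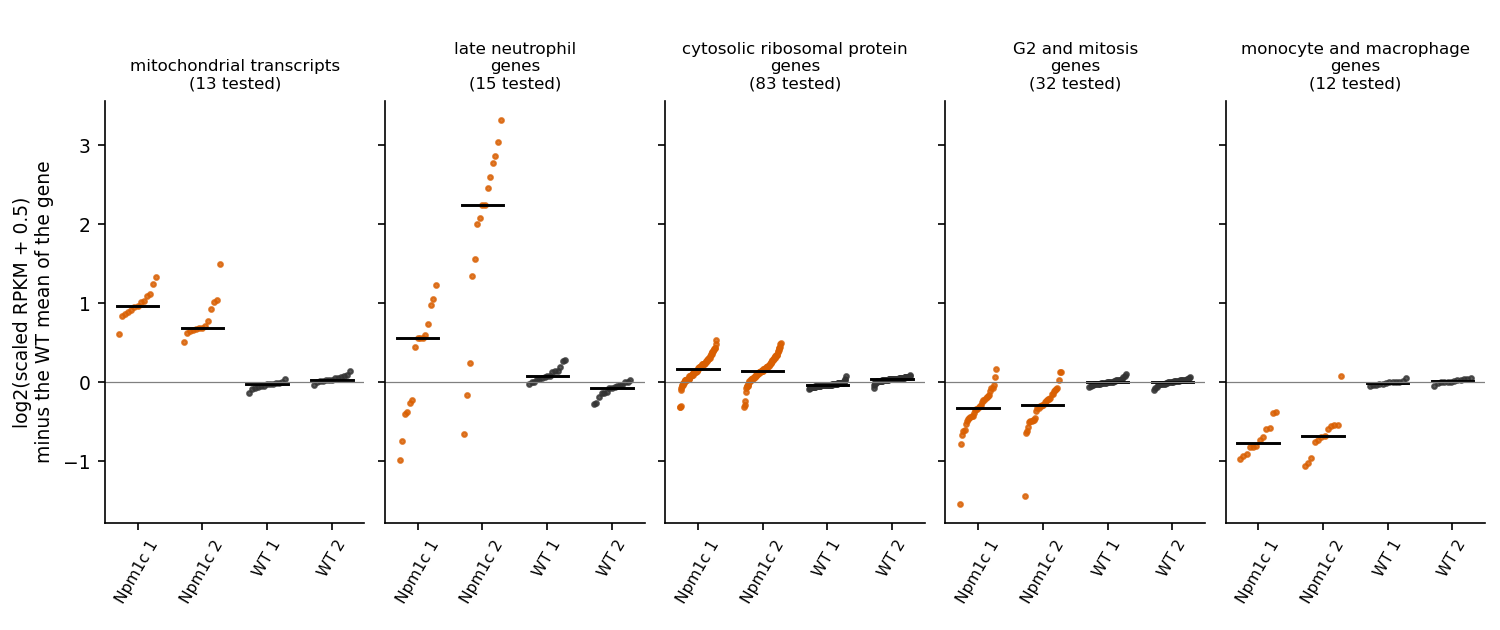
Each panel shows the members of 1 gene list as log2 differences from the WT mean, with the 2 Npm1c libraries left of the 2 WT libraries and a bar at the median. Mitochondrial transcripts (medians 0.96 and 0.68 in Npm1c replicates 1 and 2), G2 and mitosis genes (-0.33 and -0.29) and monocyte genes (-0.77 and -0.69) moved alike in both Npm1c libraries, whereas late neutrophil genes did not (0.55 and 2.24).

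Interferon response genes, a class to which Mx1 itself belongs, were lower in 46.2% of tested members, against 21.7% of all genes. Of 26 tested, 12 fell and 0 rose (median -0.20), and 5 to 11 fell when any 1 library was left out. Isg15, a ubiquitin-like protein conjugated during antiviral responses, was at 1.46 and 1.07 scaled RPKM in Npm1c, against 3.23 and 2.64 in WT (-0.97, adjusted p = 0.00294). Oas3, a sensor of double-stranded RNA, was at 0.873 and 0.599, against 1.69 and 1.68 (-0.83, adjusted p = 0.00229), and Trim30a fell by 0.62 (adjusted p = 0.00378). Oas3 passed the expression minimum through the WT libraries alone, so it had to differ in deposited RPKM, though not necessarily after scaling. Against Flt3-ITD, 20 of the 26 were lower in Npm1c and 0 were higher, beside 12.3% and 7.75% of all genes. The median was -0.60. MHC class I presentation genes did not follow, with 5 of 21 higher (23.8%, near the 19.2% of all genes) and 2 lower (1 and 9 without scaling). H2-Q7, a non-classical class I gene, was at 2.53 and 2.66 in Npm1c, against 1.29 and 1.13 in WT (0.86, adjusted p = 0.00077).

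Receptors and adhesion molecules at the cell surface were mixed. Of 25 cytokine receptors, 3 rose and 8 fell, and of 21 adhesion and surface genes, 2 rose and 11 fell (4 to 5 and 4 to 8 falls when any 1 library was left out). Kit, the stem cell factor receptor, was at 15.2 and 14.6 scaled RPKM in Npm1c, against 12.7 and 12.5 in WT (0.23, adjusted p = 0.0113). The adjusted p for Kit was 0.0336 to 0.0709 with 1 library left out, over the threshold in all but the fit without Npm1c replicate 2, and the difference was -0.04 without scaling (adjusted p = 0.618). Il3ra, the specific chain of the interleukin-3 receptor, was at 2.81 and 3.02, against 5.25 and 5.58 (-0.79, adjusted p = 0.0016), and was 0.65 lower than in Flt3-ITD (adjusted p = 0.0052). Tnfrsf1b, a tumour necrosis factor receptor, and the adhesion ligand Icam1 fell by 0.78 and 0.61 (adjusted p = 0.00368 and 0.00499). Ly6a, the Sca-1 antigen of mouse stem cells, was at 0.934 and 0.593 in Npm1c, against 1.61 and 1.68 in WT (-0.77, adjusted p = 0.00376). It passed the expression minimum through the WT libraries alone, so it had to differ in deposited RPKM, though not necessarily after scaling. The stem cell gene list as a whole had 3 rises, among them Hoxa9, and 4 falls among 14 tested (1 to 5 rises and 1 to 3 falls with 1 library left out).

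Genes of the actin cytoskeleton gave 13 falls and 1 rise among 33 (2 to 7 falls when any 1 library was left out). The falls were 39.4% of the list, against 21.7% of all genes. Tln1, which couples integrins to actin, was at 34.7 and 34.5 scaled RPKM in Npm1c, against 57.4 and 56.4 in WT (-0.71, adjusted p = 0.00165). Myh9, the heavy chain of non-muscle myosin, was at 12.2 and 12.4, against 22.5 and 19.5 (-0.75, adjusted p = 0.00534).

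Late neutrophil genes rose chiefly in 1 library. Of 15 tested, 6 rose and 0 fell, with a median of 1.31, but the summed level of the 26 listed genes was 107 and 469 scaled RPKM in Npm1c replicates 1 and 2, against 77.8 and 60.9 in WT. WT neutrophils summed to 196983 and 196416, and of the 26 genes Stfa2 was at 0 in all 4 HSPC libraries. Ngp, a secondary granule protein, was at 25.3 and 109 in Npm1c, against 11.6 and 9.57 in WT (2.27 ± 0.57, adjusted p = 0.0196). Camp, the cathelicidin precursor, was at 8.23 and 33.9, against 3.68 and 3.70 (2.05, adjusted p = 0.0237). Both lay above WT in each Npm1c library, and replicate 2 lay further above replicate 1 than replicate 1 lay above WT. S100a8, a calcium-binding alarmin, and Chil3, a chitinase-like lectin, rose by 1.75 and 1.79 (adjusted p = 0.0436 and 0.0194). Without Npm1c replicate 2, 7 genes of the list rose and 1 fell, without Npm1c replicate 1, 12 rose and 0 fell, and without 1 of the WT libraries the adjusted p of these 4 genes lay between 0.0800 and 0.187. Npm1c replicate 2 is also the library with Y-linked expression, and with the Y-linked level as a covariate 3 rose and 2 fell. The part of mature neutrophils or of the donor of that library in these values was not tested.

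Other marker lists were examined beside them, with 21.7% of all genes lower as the background. The summed level of primary granule genes was 809 and 791 scaled RPKM in Npm1c, against 1116 and 1171 in WT. Only 2 of 14 were called lower, but 13 of 14 had negative changes, with a median of -0.57. Relative to the WT mean, the median was -0.60 in each Npm1c library. The spread behind the calls includes the uneven Flt3-ITD pair, with sums of 2020 and 977, and its part was not tested. B cell and plasma cell genes summed to 143 and 93.9, against 221 and 225, and 6 of 9 tested fell (3 to 6 with 1 library left out). Dntt, the terminal transferase of lymphoid progenitors, was at 1.16 and 2.28 in Npm1c, against 4.56 and 4.82 in WT (-1.27, adjusted p = 0.00531). The plasma cell genes Mzb1 and Jchain fell by 1.30 and 1.16 (adjusted p = 0.0029 and 0.011), but Jchain was at 107 and 58.2 in the 2 Npm1c libraries, against 177 and 179 in WT, and its adjusted p was 0.0602 and 0.0670 without WT replicate 1 and WT replicate 2. T and NK cell genes summed to 36.1 and 34.8, against 44.8 and 46.3, and stromal and endothelial genes to 13.8 and 13.5, against 16.7 and 17.3. Gzmb, the cytotoxic protease granzyme B, was the one T and NK gene that rose, at 2.33 and 1.90 in Npm1c, against 1.202 and 1.07 in WT (0.67, adjusted p = 0.00308).

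Some erythroid and megakaryocyte genes fell, the second at a share near that of all genes. Of 32 erythroid genes, 14 fell (43.8%, against 21.7% of all genes) and 2 rose (median -0.22, 5 to 11 falls with 1 library left out). Sptb, the erythroid spectrin beta chain, was at 7.88 and 7.54 scaled RPKM in Npm1c, against 15.8 and 14.9 in WT (-0.95, adjusted p = 0.000167). Hemgn, a nuclear factor of erythroid progenitors, was at 24.7 and 25.4, against 42.8 and 42.5 (-0.76, adjusted p = 0.000417), and Dmtn, which crosslinks actin under the red cell membrane, fell by 1.17 (adjusted p = 9.32e-05). The summed level of the erythroid list was 2558 and 2948 in Npm1c, against 2450 and 2554 in WT, above both WT libraries in each Npm1c library and highest in replicate 2. Of 22 megakaryocyte and platelet genes, 6 fell (27.3%) and 0 rose, and 16 fell without scaling. Their sum was 394 and 240 in Npm1c replicates 1 and 2, against 431 and 445 in WT, and 19 fell without Npm1c replicate 1, 2 without WT replicate 1 and 1 without WT replicate 2. Thbs1, a platelet granule glycoprotein, was at 21.8 and 14.2, against 36.5 and 37.2 (-1.04, adjusted p = 0.00492).

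**Figure D4:**
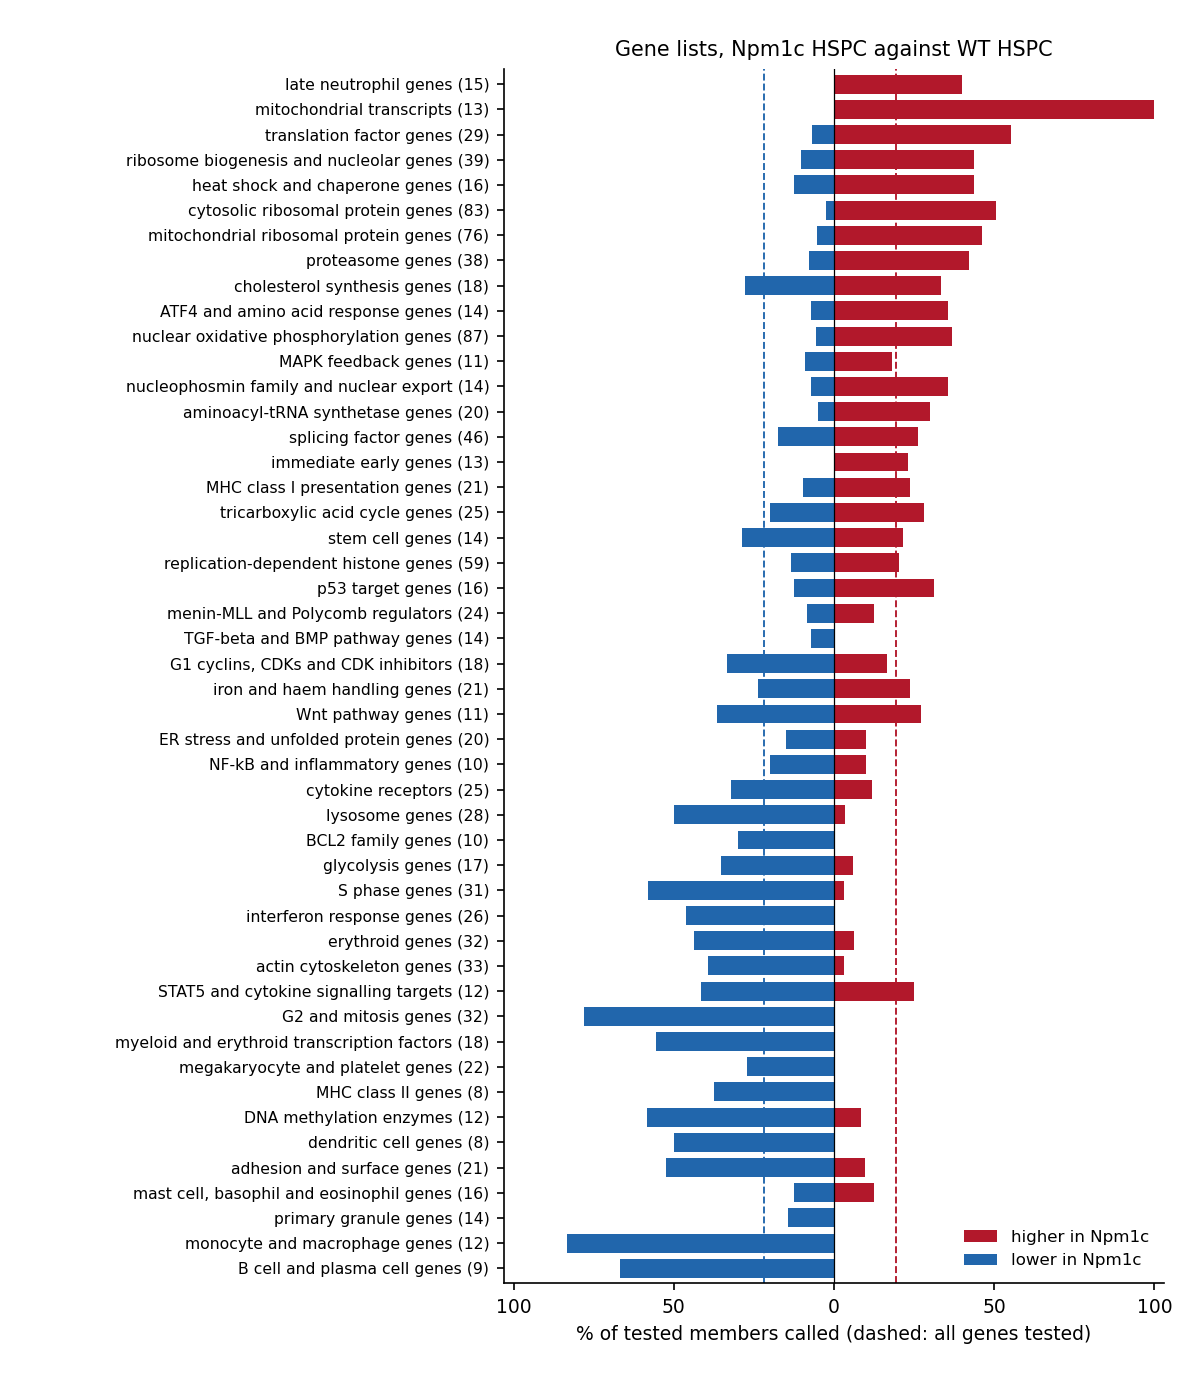
Gene lists with at least 8 tested members, with the share of tested members that rose to the right and the share that fell to the left, and the background over all 8879 genes (19.2% and 21.7%) as dashed lines. Mitochondrial transcripts lie farthest to the right, with 13 of 13, and monocyte genes (10 of 12) and G2 and mitosis genes (25 of 32) farthest to the left.

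A few immediate early genes rose, at a share near the background. Of 13 immediate early genes, which respond within minutes to stimulation or handling, 3 rose (23.1%, against 19.2% of all genes) and 0 fell, also when any 1 library was left out. Jun was at 12.004 and 11.7 scaled RPKM in Npm1c, against 5.24 and 5.27 in WT (1.103, adjusted p = 0.00375), and its AP-1 partner Fosb at 2.37 and 2.88, against 0.985 and 0.967 (1.08, adjusted p = 0.00465). Dusp1, a phosphatase that switches off MAP kinases, rose by 0.95 (adjusted p = 0.00449). In the direct contrast with Flt3-ITD, 0 of the 13 were higher in Npm1c and 4 were lower (12 without Flt3-ITD replicate 2). Of 16 heat shock and chaperone genes, 7 rose (43.8%) and 2 fell (3 to 8 rises with 1 library left out, and 3 rises and 6 falls without scaling), among them the co-chaperone Hsph1 at 4.37 and 4.63 in Npm1c, against 2.85 and 2.39 in WT (0.68, adjusted p = 0.00165). Kdm6b, a demethylase that removes the Polycomb mark from histone H3, was at 1.47 and 1.60, against 1.06 and 0.949 (0.43, adjusted p = 0.00312).

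Metabolic lists were divided. Of 17 glycolysis genes, 6 fell (35.3%, against 21.7% of all genes) and 1 rose. The gene that rose was Ldha, lactate dehydrogenase A, at 85.6 and 95.7 scaled RPKM in Npm1c, against 63.8 and 63.8 in WT (0.50, adjusted p = 0.00185). Only 1 glycolysis gene fell in each fit with 1 library left out. Of 14 ATF4 and amino acid response genes, 5 rose and 1 fell (1 and 6 without scaling), including Psat1 of serine synthesis at 16.2 and 17.3 in Npm1c, against 12.4 and 12.4 in WT (0.41, adjusted p = 0.00165).

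Other genes with large falls belonged to varied functions. Phyhip, named as an interactor of phytanoyl-CoA hydroxylase, was at 1.61 and 1.90 scaled RPKM in Npm1c, against 7.63 and 7.74 in WT (-1.86 ± 0.081, adjusted p = 0.000108), and was 1.54 lower than in Flt3-ITD (adjusted p = 0.000278). Eid1, an inhibitor of the acetyltransferases p300 and CBP, was at 15.3 and 15.3, against 34.1 and 34.97 (-1.15 ± 0.047, adjusted p = 9.32e-05), and was 1.18 lower than in Flt3-ITD (adjusted p = 0.00019). Fahd1, a mitochondrial oxaloacetate decarboxylase, was at 3.89 and 3.34, against 8.46 and 9.59 (-1.21, adjusted p = 0.000541). Mgst3, a microsomal glutathione transferase and a member of the erythroid list, was at 20.02 and 16.9, against 40.1 and 44.7 (-1.18, adjusted p = 0.000683). Sec14l2, a lipid-binding protein, and Aldh3b2, an aldehyde dehydrogenase, fell by 1.104 and 1.30 (adjusted p = 0.000167 and 0.000683). In all of these the 2 Npm1c libraries lay below the 2 WT libraries, as in 41.3% of all genes. The naming rule required this of the largest falls.

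Direction followed the GC content of transcripts. When genes were split into 10 equal bins by GC content, in the lowest bin (at most 41.1%), 39.2% rose and 7.82% fell, and in the highest bin (at least 57.3%), 7.23% rose and 33.3% fell. The median log2 difference was 0.14 in the lowest bin and -0.13 in the highest. Both Npm1c libraries showed it, with medians of 0.13 and 0.14 relative to WT in the lowest bin and -0.11 and -0.14 in the highest, and so did Flt3-ITD, with 0.08 and 0.13 and with -0.04 and -0.11. Double mutant libraries lay at 0.03 and 0.01 and at 0.02 and 0.01 in these bins, and the WT libraries within 0.02 of 0. The median GC content was 45.1% for the genes that rose, 52.6% for those that fell and 49.3% for the rest. After GC correction of each library, 1746 genes (20.4%) rose and 1439 (16.8%) fell among 8562 with a GC value. The HoxA, mitochondrial, mitotic and monocyte counts were then 4 rises, 13 rises, 25 falls and 9 falls, ribosomal protein genes had 59 rises and 1 fall, and interferon response genes 10 falls. The part of GC content in the changes of single genes was not tested beyond this correction. Direction also varied with expression level. In the lowest of 10 equal bins by mean level over the 4 libraries, 7.88% rose and 28.7% fell (median -0.12). In bin 5, counted from the lowest, 17.1% rose and 21.5% fell. With a minimum of 5 RPKM, 1182 genes rose and 1049 fell among 4631 tested. The part of level, or of a minimum on deposited RPKM, in the counts of gene lists was not tested.

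**Figure D5:**
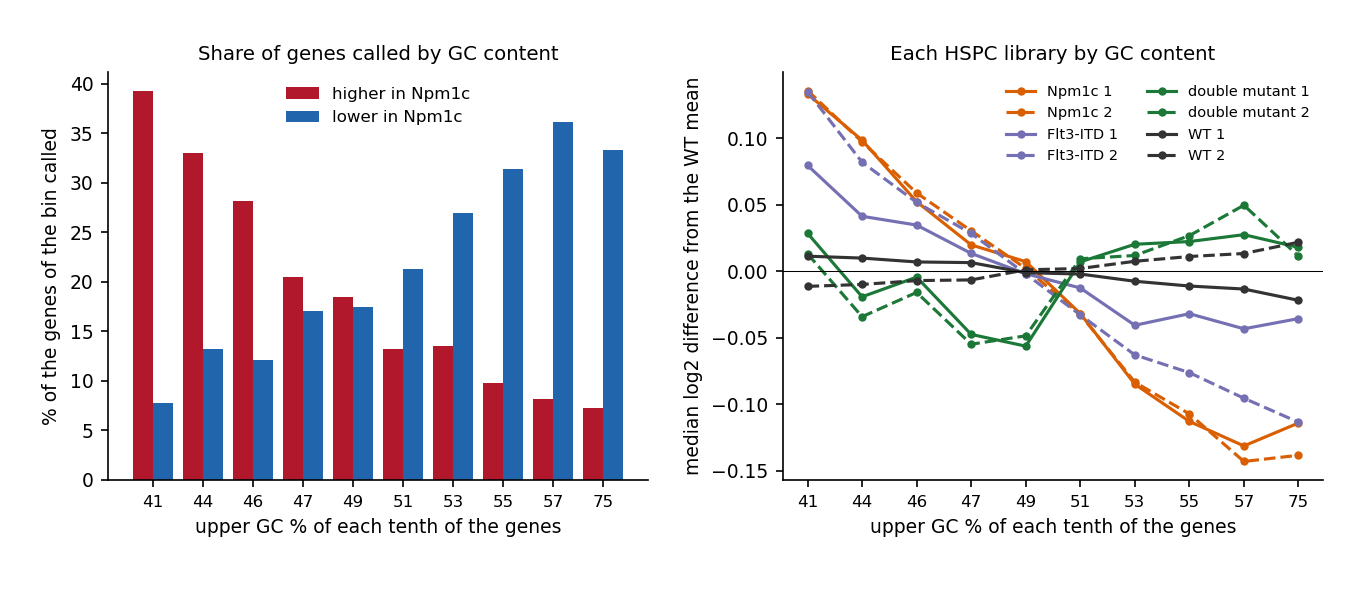
Genes with a GC value in 10 equal bins by GC content of the longest annotated transcript, low to high, with the share that rose and that fell in Npm1c and the median log2 difference from WT per library. The share that rose runs down to 7.23% from 39.2% across the bins, and the medians of the 2 Npm1c libraries are 0.13 and 0.14 in the lowest bin and -0.11 and -0.14 in the highest.

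Several of the largest differences belonged to near-identical gene copies, among which short reads can be split. Hist1h4m was at 15.8 and 15.2 scaled RPKM in Npm1c, against 240.2 and 245 in WT (-3.93 ± 0.10, adjusted p = 1.9e-05), while the histone H4 copy Hist1h4n was at 444 and 398, against 213 and 224 (0.94, adjusted p = 0.00077). Flt3-ITD libraries had Hist1h4m at 16.4 and 18.0, and double mutant libraries at 6.23 and 7.88. Gm8730, a copy of the ribosomal protein gene Rplp0, was at 373 and 376 in Npm1c, against 5.78 and 6.14 in WT, but at 9.33 and 349 in the 2 Flt3-ITD libraries. Its difference of 5.86 ± 1.4 had an adjusted p of 0.0162, which was 0.0667 to 0.0831 when any 1 library was left out, and Rplp0 was at 649 and 649 in Npm1c, against 790.0 and 830 in WT. Amd2, a copy of the S-adenosylmethionine decarboxylase gene Amd1, was at 1.82 and 2.05, against 0.140 and 0.144 (1.92, adjusted p = 0.000108). It passed the expression minimum through the Npm1c libraries alone, so it had to differ. Of these copies only Gm8730 differed this much between replicates of 1 group. Hist1h4m and Hist1h4n moved in opposite directions, and their joint level was not tested. Since reads can be split among copies, these 3 sets of values are given as uncertain.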

How the data were processed

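RNA-seq libraries were compared as 2 Npm1c and 2 WT HSPC libraries. Each library has its own deposited table of RPKM, that is, the authors' read numbers divided by the length of each gene and the total of the library. STAR 2.4.0, HTSeq, DiffBind and the mm10 build are named per the submitters' processing notes. The gene annotation, the use of strand in counting, the treatment of reads mapping to several places and the reads that enter the RPKM total are matters not given in the sources used here. Values were whole multiples of what 1 read is worth, and whole reads were recovered for 16650 of 16655 genes within a tolerance of 0.02 reads. They give the depths printed here and entered no test. Libraries of a genotype differed by more than the sampling noise of these reads (chi-square per degree of freedom 13.2 in Npm1c and 6.74 in WT).

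RPKM values were divided by median-of-ratios factors computed over the 8 HSPC libraries, and log2(value + 0.5) was fitted with limma 3.58.1 (R 4.3.3) with moderated statistics along a variance trend, at 0.05 after Benjamini-Hochberg adjustment. The genes tested had at least 1 RPKM in at least 2 of the 4 libraries. The 8 HSPC libraries, 2 per genotype, shared the estimate of the spread. Npm1c was contrasted with WT and, in the same fit, directly with Flt3-ITD. The WT libraries are not part of the second difference, but they enter its spread, its scaling and the choice of genes tested. The script was tested on simulated data. Promoters were matched by symbol (6820 of 8879 genes) and transcripts by symbol to GENCODE M21 on GRCm38 (8562 genes). Tables and plots used Python 3.11.15, NumPy 2.4.6, pandas 2.3.3 and matplotlib 3.10.9.

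The members and the 57 gene lists were chosen with earlier results of these data known, so the counts of a list describe it and are not independent support. Genes were named by a rule that took Npm1 and Flt3, the Hox genes tested, the 20 largest rises and 20 largest falls past the threshold with a mean of 2 RPKM or more in the group where they are higher and no overlap, up to 4 genes per list by adjusted p, the 10 most abundant genes, and genes under 0.25 RPKM in one genotype with at least 1 RPKM in the other. It allowed 231 genes, of which 100 are named, and Cenpe, Cenpf, Kif23 and Gm8730 were chosen after their values were seen. Alternatives were no scaling, listed-gene and quantile scaling, other pseudocounts and filters, library weights, a replicate block, a Y-linked covariate, a fit on the 4 libraries, omission of mitochondrial transcripts and of each library, and, added after seeing the data, a GC correction, a crossed block and omission of each Flt3-ITD library.

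Replicate numbers were shared between genotypes in the labels. Deviations of same-numbered WT and Npm1c libraries from their group means correlated at -0.115 over genes, and the labels do not say that a number marks a litter or day, so the numbers were not taken as pairs.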

Additional observations from a re-analysis of the deposited data

How the results depend on the processing

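The counts of 1703 rises and 1923 falls became 227 and 5401 without scaling, with 20 rises and 139 falls of at least 2-fold, against 34 and 37. A filter at 5 RPKM gave 1049 falls and 14 rises of at least 2-fold. The falls of at least 2-fold numbered 81 and 20 with pseudocounts of 0.1 and 1 RPKM, and 63 with the Y-linked level as a covariate. Leaving out 1 library gave 630 to 1016 rises and 704 to 1249 falls, of which 20 to 36 rises and 28 to 56 falls were of at least 2-fold. Under the other alternatives each of these counts stayed within 1.5 times its main value. The cause of these shifts was not tested, except that a filter leaves fewer genes (4631) to test.

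Of the 104 named genes, 93 passed the threshold in all 4 fits with 1 library left out. Npm1 and Kit turned to -0.036 and -0.044 without scaling, and Rps12 to -0.18 under quantile normalization. The replicate block gave 1525 rises and 1779 falls, and the named gene lost under it was S100a8 (adjusted p = 0.0567). In the direct contrast with Flt3-ITD, leaving out 1 Flt3-ITD library, added after seeing the data, gave 543 to 1676 genes higher and 1047 to 2037 lower, against 688 and 1088, with the remaining library assumed to vary like the other groups. A crossed pairing, chosen after seeing the data, gave 1620 rises and 1844 falls.

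With 2 libraries per genotype, the adjusted p of a gene rests on the spread shared with the other genotypes, so a gene that varies in those groups can miss the threshold although its 4 libraries do not overlap. Non-overlap held for 3253 genes (36.6%) higher and 3669 genes (41.3%) lower in Npm1c.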

Other observations

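Replication-dependent histone genes had 12 rises and 8 falls among 59 tested, with 6 to 14 rises when any 1 library was left out and 5 rises and 37 falls without scaling. Set directly against Flt3-ITD, 31 of the 59 were lower in Npm1c and 0 were higher. Splicing factor genes had 12 rises and 8 falls among 46 (0 and 25 without scaling, and 2 to 5 of each with 1 library left out). Aminoacyl-tRNA synthetase genes had 6 rises and 1 fall among 20 (0 and 13 without scaling), tricarboxylic acid cycle genes 7 and 5 among 25 (0 and 15), cholesterol synthesis genes 6 and 5 among 18 (0 and 7), and iron and haem handling genes 5 and 5 among 21 (3 and 13). Leaving out any 1 library gave 1 to 2 rises of synthetase genes, 1 to 4 rises and 2 to 3 falls of tricarboxylic acid cycle genes, 2 to 7 and 0 to 5 of cholesterol synthesis genes, and 2 to 4 and 0 to 2 of iron and haem genes.

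Signalling and stress lists can be read against the background of 19.2% higher and 21.7% lower. STAT5 and cytokine signalling targets had 3 rises and 5 falls among 12, MAPK feedback genes 2 and 1 among 11, Wnt pathway genes 3 and 4 among 11, and TGF-beta and BMP pathway genes 0 and 1 among 14. ER stress genes had 2 rises and 3 falls among 20, and NF-kB and inflammatory genes 1 and 2 among 10. BCL2 family genes had 0 and 3 among 10, and Hox partner factors 0 and 1 among 3. Mast cell, basophil and eosinophil genes had 2 and 2 among 16, but 12 had negative changes, with a median of -0.51. Relative to the WT mean, their median was -0.55 and -0.46 in Npm1c replicates 1 and 2. Their sums in the Flt3-ITD pair, which enters the shared spread, were 568 and 275 scaled RPKM. No sex-linked marker was tested, and the long nuclear RNAs and small nucleolar RNAs were not analysed here.

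By chromosome, the share of genes that rose was 14.2% on chromosome 7 and 25.1% on chromosome 18, and the share that fell was 28.9% and 16.6%. All 13 genes of the mitochondrial chromosome rose.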
